A study of Homo sapiens with 8 samples.

Results

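The libraries labelled MetaICM were compared with those made after 3 days of inflachromene (ICM), a small molecule that targets the chromatin proteins HMGB1 and HMGB2. The comparison covers 4 of the 8 factory RNA-seq libraries of the series, 2 in each group, chosen by their titles alone, and all genes entered it. All 8 came from IMR90, a line of normal human fetal lung fibroblasts of limited lifespan, at low passage. The other 4 libraries, from young control cells and from cells given ICM for 6 days (2 each), serve as points of reference. Neither the labels nor the study's text says what the MetaICM treatment was, how long it lasted or whether ICM was still present, so MetaICM is used here as a name only, and the labels do not say whether the control cells received a vehicle. Nor do they state that the 2 libraries of a group came from separate cultures, so that p-values measure the spread between these libraries, which may be technical.

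Factory RNA-seq reads RNA that stays with the nuclear sites where RNA polymerase II is active, and so favours transcripts in the making. The labels' extraction text, however, describes total RNA of directly lysed cells with poly(A)+ selection and no isolation of such sites. Senescence is a lasting exit from the cell cycle, in which the genes of DNA replication and mitosis fall silent, the CDK inhibitor p21 and other p53 targets go up, lamin B1 and HMGB2 are lost from the nucleus, and many cells secrete cytokines and matrix proteases, together called the SASP. Electrophilic and oxidative stress acts through another regulator, NRF2, which binds antioxidant response elements upstream of genes for glutathione, thioredoxin and quinone metabolism.

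The counted read pairs came to 20415790 and 23166405 in the MetaICM libraries and to 21230563 and 14400220 in the 3-day libraries, and to between 12095123 and 18898154 in the other 4. Levels are given as CPM, the counts on a gene's exons relative to the library's normalised total, in the order of replicates 1 and 2. Across genes, log2 CPM correlated with a Pearson's r of 0.996 between the MetaICM libraries, 0.993 between the 3-day libraries and 0.955 to 0.964 between MetaICM and 3-day libraries. The long nuclear RNAs NEAT1 and MALAT1 together took 1.90% and 1.49% of the counts after 3 days of ICM, and 0.498% and 0.536% in MetaICM. Small nucleolar RNAs took 2.96% and 2.30% against 2.13% and 2.73%.

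Of 16209 genes tested with edgeR's quasi-likelihood test, 2121 (13.1%) were higher and 1677 (10.3%) lower in MetaICM than after 3 days of ICM, at an adjusted p under 0.05 and an absolute log2FC over 0.6, which is what "called" stands for from here on. Counts of called members in each gene list below stand beside these 13.1% and 10.3%. Of the called genes, 55.8% were higher. This share depended on the scaling, with 48.9% higher (1900 higher and 1982 lower) when counts were scaled to library totals. Changes of more than 2 on the log2 scale were seen in 380 higher and 218 lower genes, and of more than 4 in 31 and 39. The median log2FC of all genes tested was 0.0093. The CPM of the MetaICM and 3-day libraries did not overlap for any of the higher genes and for 1676 of the lower ones. LOC101928731 was the exception, named after its values were seen. As the genes were called from these same libraries, the lack of overlap adds no support to the calls. As the plot of log2FC against level shows, the mitosis and histone genes stood above 0 and most NRF2 targets and glycolysis genes below it.

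**Figure D1:**
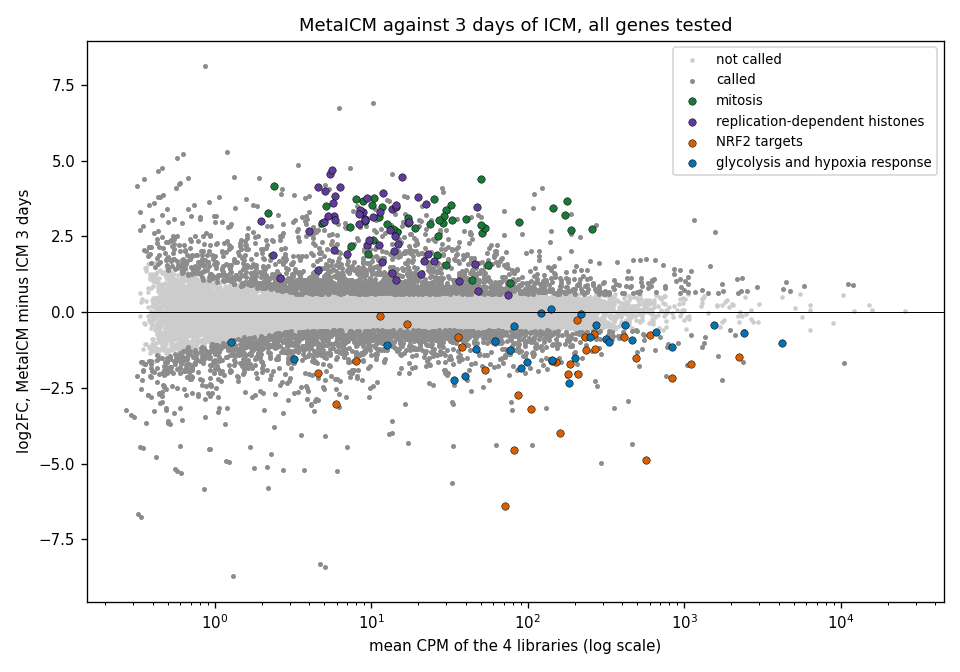
Fitted log2FC of MetaICM minus ICM 3 days (vertical) against the mean CPM of the 4 libraries (horizontal, log scale) for 16209 genes, with 4 gene lists in colour; the points beyond 8 in either direction, OAS2, ARC, LINC00536 and SPP1, have 0 or 1 count in one group, so their fitted height depends on the prior count. The mitosis and histone genes lie above 0 and the NRF2 targets below it.

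The cell division genes showed the broadest difference. All 46 members of a list of mitosis genes were called higher in MetaICM, beside 13.1% of all genes, with log2FC between 0.96 and 4.41 and a median of 2.97. The CPM summed over the list was 488 and 537 after 3 days of ICM and 3353 and 3509 in MetaICM, with 5684 and 5759 in control. In bulk libraries, a smaller share of dividing cells and less RNA per cell cannot be told apart. CDK1 (chromosome 10, 62538089 to 62554611 of hg19), the kinase that drives entry into mitosis, had 5.15 and 4.52 CPM after 3 days and 32.5 and 34.2 CPM in MetaICM, where control libraries had 50.3 and 45.7. Both MetaICM libraries lay far above both 3-day libraries and below both control libraries. The log2FC against 3 days was 2.78 (standard error 0.13, Benjamini-Hochberg adjusted p = 7.70e-10, edgeR), or 6.86-fold. For MKI67, which encodes the proliferation marker Ki-67, levels of 21.4 and 27.8 CPM stood against 264 and 261 CPM, and control was higher again at 543 and 609 CPM. TOP2A, the topoisomerase that untangles chromosomes, had 60.3 and 73.9 CPM after 3 days and 455 and 439 in MetaICM (log2FC 2.74, standard error 0.10). Again the MetaICM libraries fell between the 3-day and the control libraries, which had 840.5 and 879.98 CPM. The largest log2FC of the list was that of KIF20A, a kinesin of cytokinesis, at 4.41 (standard error 0.12), from 4.74 and 4.18 to 93.8 and 96.96 CPM, although 71 of its exon bases are shared with CDC23 on the other strand. Among other members, the log2FC was 4.15 for CENPA, the histone of centromeres, 3.68 for BIRC5 (survivin), 3.66 for CENPF, 3.53 for CDC20 and 3.07 for CCNB1 (cyclin B1).

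Many genes of this list are switched off in resting cells through a promoter element named CHR, with the letters TTTGAA, often next to boxes that read CCAAT. Among the RefSeq promoters of GRCh38.p14 that could be matched by symbol (39 of the 46), 22 held a CHR in the 250 bases upstream of the start on either strand (56.4%) and 30 a CCAAT (76.9%). Over all 27305 promoters, the shares were 13.6% and 33.0%, and over the genes tested 9.23% and 34.7%. Genes higher in MetaICM had 11.1% and 40.9%, and genes lower in MetaICM 13.9% and 33.5%. A match describes the letters only. The 3 promoters printed here were chosen because they hold both motifs, which are in capitals (CCAAT boxes also as ATTGG, their other strand), and each sequence ends at the base before the start. CCNB2 (cyclin B2, chr15:59105016-59105145, plus strand) had a log2FC of 2.63, PLK1 (polo-like kinase 1, chr16:23678789-23678888, plus strand) of 2.93, and CDCA8 (borealin of the chromosomal passenger complex, chr1:37692386-37692515, plus strand) of 3.55. In CDCA8, the CHR and an inverted CCAAT share bases.
CCNB2: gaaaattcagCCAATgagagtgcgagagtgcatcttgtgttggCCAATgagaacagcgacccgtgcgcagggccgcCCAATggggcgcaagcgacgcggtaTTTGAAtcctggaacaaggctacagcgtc
PLK1: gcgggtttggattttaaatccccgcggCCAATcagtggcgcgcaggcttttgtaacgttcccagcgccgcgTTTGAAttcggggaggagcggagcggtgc
CDCA8: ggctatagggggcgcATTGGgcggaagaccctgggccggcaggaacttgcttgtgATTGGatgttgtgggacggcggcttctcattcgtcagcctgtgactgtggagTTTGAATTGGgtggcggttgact
In PLK1, for which the 3-day libraries had 3.96 and 3.98 CPM and the MetaICM libraries 30.02 and 30.3, 58 exon bases are shared with ERN2 on the opposite strand.

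DNA replication genes moved the same way by smaller amounts. Of 64 E2F targets and replication genes, 60 were called higher and 0 lower, with a median log2FC of 1.58. The 4 that were not called were CCNE1 (cyclin E1, log2FC 0.57), E2F7 (0.42), PCNA (the sliding clamp, 0.34) and CHEK1 (0.27). CCNE1 was called with a replicate block (0.61), with thinned libraries (0.68) and when 3-day replicate 1 was left out (1.01). E2F8, an E2F family repressor, had the largest difference, from 0.414 and 0.405 to 5.598 and 6.43 CPM (log2FC 3.86, standard error 0.31). RRM2, a subunit of the reductase that makes deoxynucleotides, went from 19.3 and 22.1 to 118 and 123 CPM, and the helicase subunit gene MCM5 from 12.4 and 12.6 to 71.4 and 78.1 CPM. In neither gene did the groups overlap. The transcription factor gene E2F1 itself had 2.21 and 3.17 CPM after 3 days and 12.8 and 14.8 in MetaICM, above the 10.3 and 8.37 CPM in control, a difference that was not called. The E2F motif GCGGGAA was present in 18 of 53 matched promoters of this list (34.0%), in 8.31% of the genes tested and in 5.59% of all promoters. The CHR was found in 2 of the 53.

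Replication-dependent histone genes, which are transcribed in S phase from clusters on chromosomes 6 and 1, had the highest median of all lists, at a log2FC of 3.00. Of 54 tested among 55, 53 were called higher and 0 lower, with H1-2 (log2FC 0.56) not called and H2AC7 not tested. H1-2 was called without 3-day replicate 1 (0.63) and without MetaICM replicate 1 (0.76). The 50 genes tested on chromosome 6 had a median of 3.03 and the 4 on chromosome 1 of 2.34. All histone genes together took 0.0322% and 0.0303% of the counts after 3 days, 0.106% and 0.139% in MetaICM and 0.132% and 0.119% in control. H4C13 (chromosome 6, 27840926 to 27841289), an H4 gene of 1 exon, had 8 and 7 counts after 3 days and 187 and 283 in MetaICM, a log2FC of 4.70 (standard error 0.30). H2BC14 differed by 4.58 (5.25 without 3-day replicate 1) and H2AC11 by 4.45. The linker histone gene H1-5 went from 7.50 and 8.16 to 75.6 and 97.1 CPM. MetaICM replicate 2 was the higher of its pair in these 4 genes, and without it the median of the list was 2.76. Histone genes have near-identical relatives, so that reads may be split among them or lost, and most histone transcripts lack the poly(A) tail that the labels' protocol selects for. CCAAT was found upstream of 44 of 50 histone genes with a promoter in the table (88.0%).

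Genes of chromatin architecture split by subunit. HMGB2, a target of ICM, had 4.42 and 4.86 CPM after 3 days and 34.4 and 39.7 in MetaICM, beside 43.5 and 34.5 CPM in control, and its log2FC was 3.01 (standard error 0.14, Benjamini-Hochberg adjusted p = 5.12e-10, edgeR). Against control, HMGB2 differed by −0.08 and was not called (edgeR adjusted p = 0.711). HMGB1, the other target, went from 65.2 and 57.7 to 105 and 124 CPM (log2FC 0.90), and the architectural factor gene HMGA2 from 26.4 and 32.99 to 118 and 115 CPM (log2FC 1.98). HMGA1 was short of the cutoff at 0.59, and passed it with libraries thinned to equal totals (0.62), with no filter on low counts (0.61) and without MetaICM replicate 1 (0.64). In all, 5 of 12 HMG genes tested were called higher and 0 lower, with a median of 0.59, and 1 became lower without MetaICM replicate 2. Of 23 cohesin and condensin genes with CTCF, 12 were called higher and 0 lower, with a median of 0.62. Among the large log2FC were those of the condensin I subunits NCAPG (2.68, with 1633 exon bases shared with LCORL on the opposite strand), NCAPH (2.61) and NCAPD2 (2.03), and of ESCO2 (2.57), which acetylates cohesin in S phase. The core cohesin genes SMC1A (0.70) and SMC3 (0.62) were just past the cutoff. SMC3 fell short of it when scaled to library totals (0.56) or upper quartiles, and without 3-day replicate 2 (0.53). RAD21 (0.30) and CTCF (0.16, from 32.4 and 32.6 to 36.1 and 36.1 CPM) were not called. Of 13 genes of the nuclear lamina and envelope, 6 were higher and 1 lower (SYNE1, −1.15), with a median of 0.55. LMNB1, which encodes lamin B1, went from 5.06 and 6.14 CPM after 3 days to 53.9 and 58.1 CPM in MetaICM, 10.2-fold, but stayed under the 81.4 and 78.8 CPM of control.

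The brakes of the cell cycle did not form a common pattern. CDKN1A, which encodes p21, had 803 and 645 CPM after 3 days and 365 and 392 in MetaICM, a log2FC of −0.93 (standard error 0.10). Its MetaICM levels lay between those of ICM and those of control (137 and 95.3 CPM), from which they differed by 1.69 (Benjamini-Hochberg adjusted p = 1.33e-04, edgeR). Of its exon bases, 238 are shared with DINOL on the opposite strand. CDKN2B (p15) was lower, with 31.7 and 29.9 CPM against 15.2 and 13.8. CDKN2A (p16 and ARF) had 4.05 and 2.77 CPM after 3 days and 4.90 and 5.69 in MetaICM, and its call as higher (log2FC 0.62) was lost without 3-day replicate 2 (0.39) and without MetaICM replicate 2 (0.50), and grew to 0.94 without 3-day replicate 1. It was also lost with DESeq2, with all 8 libraries in the fit, with thinned libraries and with scaling to totals or upper quartiles. The D cyclins, which start the cycle by activating CDK4 and CDK6, diverged. CCND2 had 10.1 and 8.57 CPM after 3 days and 86.4 and 87.3 in MetaICM (log2FC 3.21, standard error 0.11), more than in control with 24.5 and 28.8 CPM. CCND1 likewise went from 382 and 365 to 1079 and 1089 CPM, beside 463 and 373 in control. Both genes thus were highest in the MetaICM libraries among all 8. CCND3 had overlapping levels of 62.2 and 51.9 CPM after 3 days and 51.9 and 57.1 CPM in MetaICM. Of the 13 genes of the list, 4 were called higher (30.8%), the fourth being CDKN2C (p18, 2.63), and 2 lower (15.4%). All genes tested had 13.1% and 10.3%, and the median of the list was 0.40. Without 3-day replicate 1, there were 7 higher genes and a median of 0.66.

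Across 40 p53 targets, 5 were called higher and 4 lower, or 12.5% and 10% of the list, beside 13.1% and 10.3% of all genes tested, and the median was −0.16. The lower ones were GDF15 (−1.33), MDM2 (−1.21), CDKN1A and NINJ1 (−0.78). MDM2, the ubiquitin ligase that holds p53 in check, had 712 and 786 CPM after 3 days and 330.1 and 315 in MetaICM, near the 283 and 229.9 CPM of control. Among the higher ones were PMAIP1 (NOXA, 0.80), BTG2 (0.68), DRAM1 (0.74), TP53I11 (0.76) and SESN2 (0.76). BAX, a mediator of apoptosis, had 62.01 and 55.2 CPM after 3 days and 45.1 and 47.4 CPM in MetaICM (log2FC −0.34, not called), and 21.8 and 16.8 CPM in control. Against control, where 7.41% of 15904 genes tested were called higher in MetaICM and 8.99% lower, 16 of 39 p53 targets were higher and 0 lower, with a median of 0.56.

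**Figure D2:**
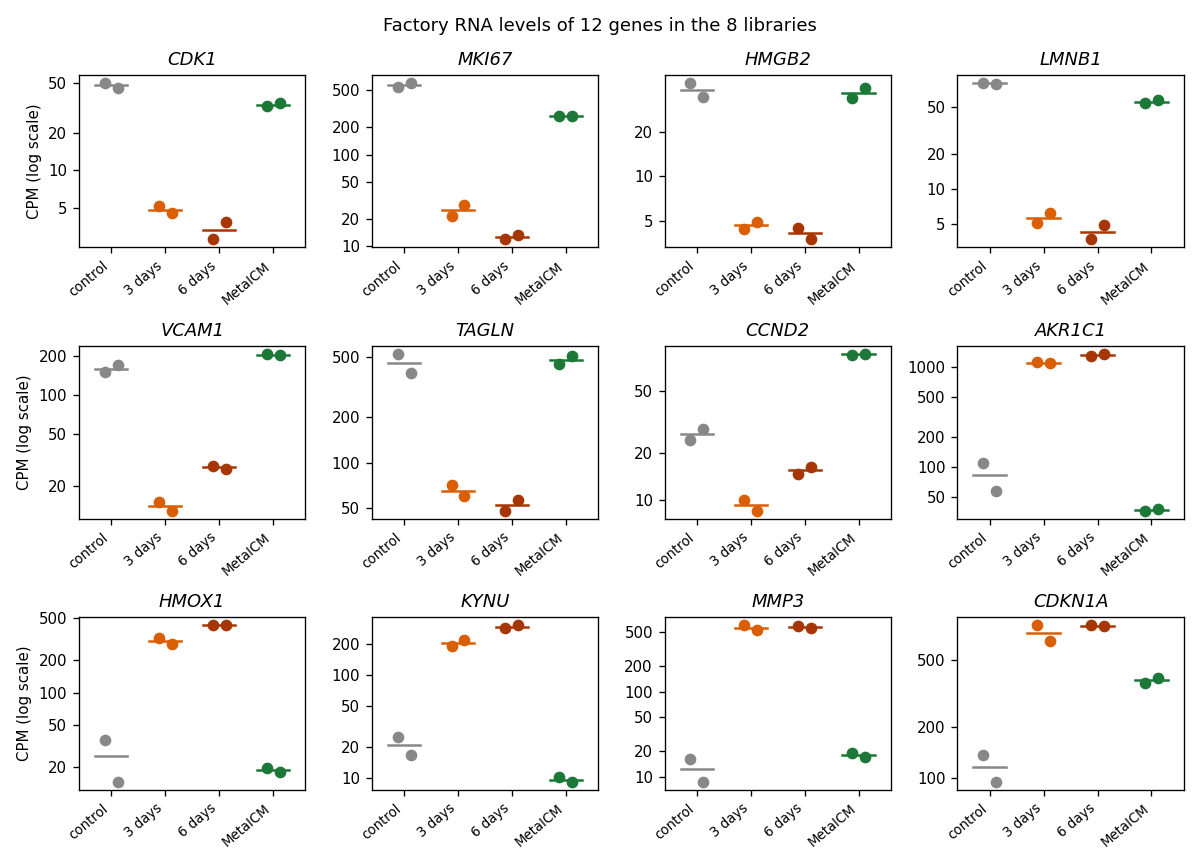
Levels of 12 genes in CPM (vertical, log scale, with its own range for each gene) in the 2 libraries of each of the 4 groups; points are libraries and lines are group means. CDK1, MKI67, HMGB2, LMNB1, VCAM1, TAGLN and CCND2 are higher in MetaICM than after 3 days of ICM, and AKR1C1, HMOX1, KYNU, MMP3 and CDKN1A lower, with CDKN1A in MetaICM above both control libraries.

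The NRF2 targets had the lowest median of the 39 lists. Of 30 genes, 27 were called lower in MetaICM and 0 higher, beside 10.3% of all genes called lower, and the median log2FC was −1.63. Summed over the list, 13840.1 and 13258 CPM after 3 days of ICM stood against 4467 and 4426 CPM in MetaICM and 4982 and 4282 CPM in control. The aldo-keto reductases, which reduce reactive carbonyls and steroids, were among the lower genes. AKR1B10 had 141 and 139.6 CPM after 3 days and 1.44 and 1.82 in MetaICM, a log2FC of −6.41 (standard error 0.13, Benjamini-Hochberg adjusted p = 4.04e-13, edgeR). AKR1C1 (chromosome 10, 5005607 to 5025474) fell from 1107 and 1077 to 36.5 and 38.1 CPM, or 29.2-fold, and AKR1C2 and AKR1C3 differed by −4.56 and −3.03. These are near-identical relatives, so that their separate values are uncertain. AKR1B10 and AKR1C1 were also called lower in MetaICM than in control, with log2FC of −1.12 and −1.17. HMOX1 (chromosome 22, 35777089 to 35790200), which encodes the enzyme that breaks down heme, had 322 and 283 CPM after 3 days and 19.8 and 18.2 CPM in MetaICM (log2FC −3.99, standard error 0.10). The control libraries had 36.2 and 14.7 CPM and enclosed both MetaICM values. NQO1, a quinone reductase, had 1428 and 1313 CPM after 3 days and 299 and 310.2 CPM in MetaICM (log2FC −2.17). GCLC and GCLM, the subunits of the enzyme that limits glutathione synthesis, differed by −2.05 and −2.03, and the cystine transporter gene SLC7A11 by −1.70. A smaller difference was found for FTH1 (−1.14), the ferritin heavy chain, 880 of whose exon bases are shared with BEST1 on the opposite strand. NFE2L2, which encodes NRF2 itself, was not called (−0.26), and the other 2 not called were BLVRB (−0.38) and SLC48A1 (−0.13).

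In the 250 bases upstream of the start, the core of the antioxidant response element (TGACNNNGC, either strand) was found in 5 of the 21 NRF2 targets with a RefSeq promoter (23.8%), namely GCLM, TXNRD1, PGD, ME1 and CBR1, and in 11.03% of all promoters. Of these 5, 3 are shown as examples, and the match is in capitals in sequences of GRCh38.p14 that end before the start. GCLM (chr1:93909431-93909510, minus strand) went from 337 and 334 to 80.6 and 82.7 CPM, ME1, the cytosolic malic enzyme (chr6:83431052-83431201, minus strand), from 278 and 289 to 88.2 and 84.5 CPM, and TXNRD1, thioredoxin reductase 1 (chr12:104215659-104215778, plus strand), from 3446 and 3153 to 1209 and 1156 CPM.
GCLM: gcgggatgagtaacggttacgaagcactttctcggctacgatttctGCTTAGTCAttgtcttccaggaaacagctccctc
ME1: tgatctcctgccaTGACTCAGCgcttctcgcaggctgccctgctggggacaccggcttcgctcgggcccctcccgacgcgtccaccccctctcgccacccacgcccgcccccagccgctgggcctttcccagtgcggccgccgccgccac
TXNRD1: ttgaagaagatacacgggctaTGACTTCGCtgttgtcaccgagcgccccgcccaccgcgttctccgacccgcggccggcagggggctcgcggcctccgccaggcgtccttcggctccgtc
In GCLM the match lies on the other strand.

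In a list of the aryl hydrocarbon receptor and the kynurenine pathway, 6 of 10 genes tested among 13 were called lower and 0 higher, with a median of −1.32. KYNU, which encodes kynureninase, had 189 and 217 CPM after 3 days and 10.2 and 9.21 CPM in MetaICM, 20.9-fold lower, and was also below control (24.99 and 16.6 CPM, log2FC −1.11). CYP1B1, a classic target of the receptor, went from 140.4 and 135 to 18.7 and 16.7 CPM and was likewise below the 75.02 and 65.2 CPM in control. The gene of the receptor, AHR, differed by −1.06, TIPARP by −1.58 and TDO2, which opens the tryptophan ring, by −2.80. NQO1 belongs to this list too. Of 35 lysosomal genes, 8 were lower and 3 higher (6 without 3-day replicate 1), led by SQSTM1 (−2.25, from 3037 and 2718 to 599.9 and 609 CPM), the autophagy receptor p62 and a known NRF2 target with 715 exon bases shared with genes on the opposite strand, and by GLA (−1.92) and NPC1 (−1.54). In the lysosomal list, 22.9% were lower and 8.57% higher, beside 10.3% and 13.1% of all genes tested, and the median was −0.17.

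Glycolysis and hypoxia genes were lower as well. Of 28 tested, 20 were called lower in MetaICM and 0 higher, with a median of −0.97. NDRG1, a hypoxia-responsive gene, had 318 and 299 CPM after 3 days and 57.02 and 63.9 CPM in MetaICM (log2FC −2.34, standard error 0.09). ALDOC (aldolase C) and PFKFB4, which raises a potent activator of glycolysis, differed by −2.23 and −2.12, BNIP3 by −1.84, PDK1, which keeps pyruvate out of mitochondria, by −1.65, and the angiogenic factor gene VEGFA by −1.51. The enzyme genes with the highest counts moved less. GAPDH went from 5823 and 5541 to 2615 and 2953 CPM, LDHA from 1126 and 1191 to 509 and 521 CPM, and PKM from 3026 and 2952 to 1837 and 1867 CPM. In none of these 3 did the groups overlap. GAPDH and 6 other members were still called higher in MetaICM than in control, where the list had a median of 0.36. The motif ACGTG, the core of the hypoxia response element, lay upstream of 12 of the 27 members with a promoter in the table (44.4%), of 22.5% of the genes tested and of 18.7% of all promoters. It was also found upstream of 14 of 39 mitosis genes (35.9%) and of 20.6% of the genes lower in MetaICM.

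Genes of the ATF4 response to amino acid shortage were mostly higher in MetaICM. Of 29 tested, 17 were called higher and 4 lower, with a median of 0.86. Serine synthesis was among them, with PHGDH going from 48.8 and 45.1 to 109.5 and 122 CPM and PSAT1 from 32.1 and 29.7 to 101 and 109 CPM. CHAC1, which degrades glutathione, differed by 2.08, DDIT4, an inhibitor of mTORC1, by 1.70, and TRIB3 by 1.27. ADM2 (adrenomedullin 2) had 19 and 5 counts after 3 days and 89 and 123 in MetaICM, with a log2FC of 2.91 that was 3.84 without 3-day replicate 1. ATF4 itself was not called (0.48). The 4 lower members were ATF3 (−1.72), SLC7A11, CEBPB (−0.69) and SLC38A2 (−0.63). Of these, SLC7A11 is also counted among the NRF2 targets and ATF3 among the immediate early genes. Relative to control, 1 of the 29 was higher and 7 were lower, with a median of −0.29. Summed over the list, however, the CPM was lower in MetaICM (5081 and 5126) than after 3 days (6396 and 6323) and in control (6047 and 5964).

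Contractile genes, a mark of myofibroblasts, were higher in MetaICM. Of 28 tested, 18 were called higher and 1 lower, with a median of 0.91. TAGLN, which encodes the actin-binding protein transgelin, had 70.9 and 60.2 CPM after 3 days and 453 and 511 CPM in MetaICM (log2FC 2.88, standard error 0.10), although 2232 of its exon bases are shared with PCSK7 on the opposite strand. The smooth muscle actin genes ACTA2 and ACTG2 differed by 2.01 and 2.50, from 75.4 and 74.95 to 291 and 314 CPM for ACTA2, which shares 516 bases with an antisense gene. MYLK, the myosin light chain kinase, went from 814 and 708 to 2241 and 2092 CPM and CNN1 (calponin) from 23.3 and 17.5 to 57.5 and 67.2 CPM. None of these 5 genes was called between MetaICM and control, with log2FC from −0.59 for ACTA2 to 0.38 for MYLK. ITGA8, the integrin α8 subunit, was called higher in both comparisons, with 3.54 and 3.44 CPM after 3 days, 59.4 and 48.7 in MetaICM and 5.59 and 4.89 in control. The lower gene was MYOCD, the coactivator that drives smooth muscle genes, with 87.1 and 103 CPM after 3 days and 26.9 and 26.8 CPM in MetaICM (log2FC −1.81, standard error 0.10), and 704 of its bases are shared with LOC100128006 on the other strand. Without 3-day replicate 2, there were 2 lower genes.

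Matrix genes went both ways. Among 27 collagen genes tested, 9 were higher (33.3%) and 6 lower (22.2%), beside 13.1% and 10.3% of all genes tested. The collagen median was 0.11, and 0.053 when scaled to library totals. COL15A1, of basement membranes, had 47.4 and 44.4 CPM after 3 days and 228 and 233 CPM in MetaICM, whereas COL7A1, of anchoring fibrils, fell from 1654 and 1542 to 449 and 492 CPM. Of the chains of the main fibrillar collagens, COL1A1 was called higher (log2FC 0.71, from 3643 and 3561 to 5753 and 5992 CPM), while COL3A1 was not called (−0.22). Among 40 other matrix genes, 17 were higher and 7 lower, with a median of 0.32, which was 0.49 without 3-day replicate 2 and 0.54 without MetaICM replicate 2. FBN2 (fibrillin 2) went from 427 and 438 to 2832 and 2602 CPM, and FBLN1, MATN2 and LOXL1, which crosslinks elastin, differed by 2.23, 2.29 and 1.93. TGFBI fell from 3638 and 3533 to 1185 and 1125 CPM. POSTN, which encodes periostin, had 88.4 and 98.2 CPM after 3 days, 19.3 and 20.1 in MetaICM and 223 and 241 in control, so that MetaICM was the lowest of these 3 groups. SPP1 (chromosome 4, 88896802 to 88904563), which encodes osteopontin, had 200 and 142 counts after 3 days and 0 and 1 in MetaICM, 418-fold lower (95% exact binomial interval from 74.6 to 16571, for counting error only). In control, SPP1 had 0 and 0 counts.

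Matrix proteases held some of the steepest decreases. MMP3 (stromelysin 1, chromosome 11, 102706532 to 102714340) had 608 and 529 CPM after 3 days and 18.97 and 17.1 CPM in MetaICM, 31.5-fold lower (log2FC −4.98, standard error 0.11, Benjamini-Hochberg adjusted p = 7.40e-13, edgeR). Its neighbours MMP1 (interstitial collagenase) and MMP10 (stromelysin 2) went from 942 and 829 to 44.7 and 42.4 CPM and from 66.9 and 62.5 to 1.04 and 1.52 CPM. The 3 genes are relatives, and 150 exon bases of MMP1 are shared with the pseudogene WTAPP1 on the other strand. None of the 3 was called between MetaICM and control, with log2FC of 0.51, −0.44 and −0.20. SERPINB2, an inhibitor of plasminogen activators, differed by −2.97. ADAMTS5 (aggrecanase 2, 1.45) and the inhibitor gene TIMP2 (1.00) were higher, and TIMP1 (−0.75) was lower. Altogether 12 of 27 protease and inhibitor genes were higher and 9 lower. Their median was 0.18, and 0.31 without 3-day replicate 1.

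The NF-κB targets and SASP factors divided into opposing sets. Of 33 tested among 40, 14 were called higher and 9 lower, with a median of 0.33. Without 3-day replicate 1, the lower genes numbered 4 and the median was 0.52, and 4 were lower when at least 10 counts were asked of every library. Adhesion receptors were higher. VCAM1, which binds integrins of leukocytes, had 14.9 and 12.8 CPM after 3 days and 208 and 203 CPM in MetaICM (log2FC 3.89, standard error 0.10), and ICAM1 went from 5.198 and 5.06 to 29.2 and 32.3 CPM. CCL2, the monocyte chemoattractant, went from 2.58 and 2.02 to 19.1 and 19.4 CPM and was above control (7.85 and 6.88 CPM). The cytokine gene IL32 had 0.368 and 0.472 CPM against 2.53 and 3.13, and NFKB1 differed by 0.67, short of the cutoff at 0.59 without 3-day replicate 1. Opposite to these, CXCL8 (interleukin 8) had 8.56 and 6.27 CPM after 3 days and 0.644 and 1.09 CPM in MetaICM (log2FC −3.08, standard error 0.29). Its control libraries lay far apart at 23.2 and 2.40 CPM. PTGS2 (COX-2), which starts prostaglandin synthesis, went from 129 and 112 to 3.91 and 7.52 CPM. AREG (amphiregulin) had 24 and 10 counts against 1 and 3 (log2FC −3.22, and −4.03 without MetaICM replicate 2). With so few counts, AREG fell below the filter and was not tested without 3-day replicate 1, nor was CCL20 without either 3-day library. CCL20 had 24 counts after 3 days and 1 in MetaICM, 29.4-fold lower (95% exact binomial interval from 4.79 to 1207), and its fitted log2FC ranged from −6.66 to −3.74 without MetaICM replicate 2 or 1. IL6 was not called, with 2.16 and 1.89 CPM after 3 days and 2.72 and 2.56 CPM in MetaICM. IL1B had 1.20 and 1.55 CPM after 3 days and 0.743 and 0.478 in MetaICM, and its call as lower (log2FC −1.15, Benjamini-Hochberg adjusted p = 0.0324, edgeR) was lost with DESeq2, with all 8 libraries in the fit, and without 3-day replicate 2 (−0.98), MetaICM replicate 1 (−1.48) or MetaICM replicate 2 (−0.86).

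Interferon-stimulated genes were called higher in 14 and lower in 2 of 36 cases, with a median of 0.48. OAS2, a sensor of double-stranded RNA, had 0 counts in both 3-day libraries and 35 and 40 in the MetaICM libraries. With the 2 groups summed and 3 counts as the floor, OAS2 was 20.4-fold higher. The lower end of the exact binomial interval was 16.2-fold, for counting error only. OAS3 went from 2.81 and 4.99 to 23.5 and 23.6 CPM and MX1, which blocks viral replication, from 1.66 and 2.02 to 9.86 and 8.73 CPM, beside 2.02 and 2.24 in control. B2M, the light chain of MHC class I, went from 88.97 and 64.5 to 186 and 219.8 CPM and HLA-B, one of many similar heavy chains, from 94.2 and 83.2 to 187 and 202 CPM. IFI44L was opposite to these, with 6.58 and 10.1 CPM after 3 days and 1.59 and 1.35 in MetaICM, and ISG20 (−0.95) was the other lower gene. Against control, 17 of 36 were higher and 0 lower, with a median of 0.60. Of the complement and acute phase genes, C3 and PTX3, secreted proteins of innate immunity, had the largest differences. PTX3 went from 13.8 and 13.3 to 232 and 233 CPM, and C3 from 0.598 and 0.607 to 10.5 and 9.69 CPM, both also higher than in control (log2FC 1.09 and 1.64).

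**Figure D3:**
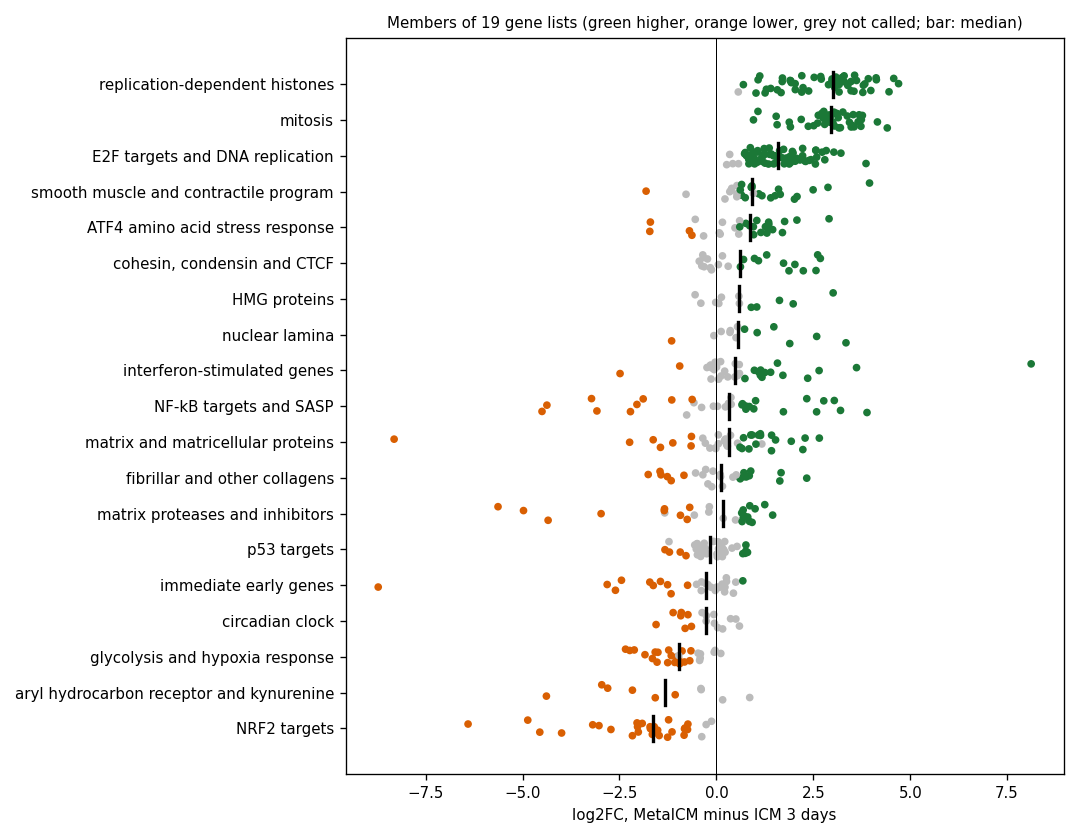
Fitted log2FC of MetaICM minus ICM 3 days for each tested member of 19 gene lists; green points are called higher, orange lower and grey not called, and the bar is the median. The medians run from 3.00 for histones to −1.63 for NRF2 targets, and the 3 points beyond 8 in either direction (OAS2, SPP1, ARC) have 0 or 1 count in one group.

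Immediate early genes, which answer growth signals within minutes, were lower in 10 and higher in 1 (BTG2) of 27 cases. ARC had 69 and 30 counts after 3 days and 0 in both MetaICM libraries, 40.4-fold lower with 3 counts as the floor. For ARC, the lower end of the exact binomial interval was 32.2-fold, for counting error only. The nuclear receptor gene NR4A2 went from 17.1 and 16.7 to 2.43 and 2.35 CPM, FOSB from 2.81 and 3.85 to 0.545 and 0.521 CPM and the phosphatase gene DUSP1 from 234 and 189 to 84.9 and 103 CPM. FOS had 12.2 and 11.2 CPM after 3 days and 2 unlike values of 2.03 and 6.43 CPM in MetaICM. Its log2FC was −1.44, but −0.86 without MetaICM replicate 1 and −2.53 without MetaICM replicate 2, and the call was lost with DESeq2. EGR1 had 40.4 and 33.1 CPM after 3 days and 16.7 and 39.4 in MetaICM, so that the groups overlapped, and its log2FC of −0.38, not called, turned to 0.11 without MetaICM replicate 1 and was called at −1.14 without MetaICM replicate 2. MetaICM replicate 1 had the lower value in both genes. The median of the list, −0.28, was 0.011 without MetaICM replicate 1 and −0.56 without MetaICM replicate 2, and with single libraries left out, 0 to 3 members were higher.

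Of 21 genes of the WNT and Notch pathways, 9 were called higher (42.9%) and 3 lower (14.3%), with a median of 0.50. All genes tested had 13.1% and 10.3%. The ligand genes did not move together. WNT16 went from 4.37 and 2.97 to 24.2 and 25.7 CPM and WNT5B from 25.3 and 25.1 to 99.7 and 102 CPM, both also called higher than in control, while WNT5A fell from 880.5 and 936 to 382 and 380.1 CPM. The WNT antagonist gene SFRP1 went from 51.2 and 41.6 to 189 and 188 CPM and the receptor gene NOTCH1 from 46.6 and 39.2 to 95.1 and 96.9 CPM. The Notch effector HES1 had 22 and 9 counts after 3 days and 2 and 3 in MetaICM (log2FC −2.78), and without 3-day replicate 1 it fell below the filter and was not tested. Of 17 circadian clock genes, 7 were lower (41.2%) and 0 higher, led by BHLHE40 (−1.56) and RORA (−1.12). The clock list had a median of −0.26 (−0.43 without MetaICM replicate 1).

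The genes with the largest log2FC were not all members of these lists. In the higher direction, TMEM178B (chromosome 7, 140773864 to 141180179), a membrane protein gene, had 3 and 3 counts after 3 days and 445 and 423 in MetaICM, a log2FC of 6.89 (standard error 0.29, Benjamini-Hochberg adjusted p = 2.17e-10, edgeR). SLC14A1, a urea transporter gene, had 1 and 3 counts against 242 and 291 (log2FC 6.74, and 5.89 to 7.90 when single libraries were left out). Both were also above control, by 2.32 and 2.85, as was ADAMTS19, a metalloprotease gene, with 0.644 and 1.69 CPM after 3 days, 27.3 and 24.2 in MetaICM and 4.82 and 5.05 in control (log2FC against 3 days 4.57, with 3.93 and 5.31 without 3-day replicate 1 or 2). RASGEF1B and PROM1 (prominin 1), by contrast, had log2FC of 4.74 and 4.42 against 3 days and of 0.05 and 0.46 against control, neither of the latter called. The same held for APCDD1, a WNT antagonist, with 101 counts in MetaICM and 2 in the 3-day libraries, a 41.3-fold difference (interval from 11.1 to 346). In the lower direction, LINC00536, a long noncoding RNA, had 357 counts after 3 days and 1 in MetaICM, 437-fold lower (95% exact binomial interval from 77.9 to 17295). ZNF385D, a zinc finger gene, had 154 and 3 counts, 62.8-fold lower (interval from 21.1 to 308). ANXA10 (annexin A10) went from 12.7 and 10.7 to 0.297 and 0.304 CPM, NR0B1, an orphan nuclear receptor, from 5.93 and 4.72 to 0.198 and 0.0869 CPM, and CYP19A1 (aromatase), which shares 43 exon bases with MIR4713HG, from 4.19 and 4.18 to 0.0991 and 0.130 CPM.

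Among the most abundant transcripts called, the cytoskeletal genes FLNA (filamin A), MYH9 (non-muscle myosin) and ACTB (β-actin) were higher by 0.92, 0.87 and 1.01, and COL6A3 and the cadherin gene FAT1 by 0.89 and 0.77. COL6A3 alone had 8438 and 8399 CPM after 3 days and 15878 and 15148 CPM in MetaICM. NEAT1, the RNA that builds paraspeckles, had 18189 and 13904 CPM after 3 days and 4762 and 5119 CPM in MetaICM (log2FC −1.69, standard error 0.12). Its levels were 8559 and 8868 CPM in control and 6753 and 7753 CPM after 6 days, so that the 3-day libraries stood above the other 6. MALAT1, which lies next to it and shares 7201 bases with TALAM1 on the opposite strand, differed by −0.77, and by −0.57 without 3-day replicate 2, short of the cutoff.

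Higher and lower genes also differed in their make-up, which was compared without a test. Genes higher in MetaICM had a median GC content of exons of 51.9%, lower genes of 44.9% and all genes tested of 48.3%. The median span from first to last exon was 23.6 kb for higher, 34.0 kb for lower and 25.2 kb for all genes, and 16.03%, 25.5% and 16.7% of them spanned more than 100 kb. Exon lengths were alike, with medians of 3324, 3471 and 3356 bases. Of the higher genes with a known type, 92.9% were protein-coding and 3.99% long noncoding RNAs, against 75.3% and 16.8% of the lower genes. The part of GC content, span and RNA type in the differences was not tested.

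The markers of the cell line and of other cell types were counted in the same way, beside 13.1% higher and 10.3% lower of all genes tested. Of 16 fibroblast markers tested among 17, 6 were higher and 1 lower in MetaICM, among them DCN (1.42), VIM (1.10), PDGFRA (0.86) and THY1 (1.20) on the higher side and FAP (−1.04) on the lower, with summed levels of 14668 and 13285 CPM after 3 days and 20596 and 21495 CPM in MetaICM. No marker of this list was at 0 in any of the 4 libraries. Epithelial markers summed to 37.9 and 38.6 CPM after 3 days and 67.6 and 70.6 CPM in MetaICM, with 5 of 11 tested and KRT19 (3.75) and KRT18 (0.82) higher, and NKX2-1 at 0 in the 4 libraries. Endothelial markers summed to 134 and 131 CPM after 3 days and 235 and 221 CPM in MetaICM, nearly all of it from TEK (0.84), while KDR and VWF were lower and CDH5 was at 0 in 3 of the 4 libraries. Immune cell markers summed to 24.9 and 21.1 CPM after 3 days and 17.1 and 17.4 CPM in MetaICM, with PTPRC the 1 lower gene of 4 tested, a call lost with DESeq2 and without 3-day replicate 2 or either MetaICM library, and CD3E, AIF1 and MS4A1 at 0 in the 4 libraries. Of 5 neuronal markers tested, SNAP25 was higher (2.75) and NEFM lower (−3.17), and the 9 of the list summed to 129 and 132 CPM after 3 days and 177 and 194 CPM in MetaICM, mostly from TUBB3, a tubulin gene that was not called. The part of other cell types in the results was not tested.

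The other 12 lists had medians between −0.20 for TGF-β genes and 0.45 for ribosomal proteins, and their counts stand beside 13.1% higher and 10.3% lower of all genes tested. Heat shock genes counted 4 higher and 0 lower of 22, YAP targets 6 and 2 of 23 (1 lower without 3-day replicate 2), and TGF-β genes 4 and 7 of 29, with BMP4 (1.93) and the receptor gene TGFBR1 (−1.66) at the ends. EGFR and MAPK genes counted 6 and 7 of 24, with 4 lower without 3-day replicate 1. In lipid metabolism, cholesterol genes counted 4 and 2 of 27 (14.8% and 7.41% of the list, with 1 lower without 3-day replicate 1) and fatty acid synthesis 0 and 4 of 12, with the desaturase gene FADS1 going from 346 and 308 to 79.5 and 83.4 CPM. Genes of the IGF axis counted 3 and 4 of 16, complement and acute phase genes 3 and 2 of 13, metallothioneins 1 and 0 of 5 (with 1 lower without 3-day replicate 1) and ribosome biogenesis 3 and 0 of 30. Ribosomal protein genes counted 6 and 0 of 32, but 0 higher without MetaICM replicate 2 and 13 without MetaICM replicate 1. Oxidative phosphorylation counted 1 and 0 of 31, the gene being COX6C (0.64), and between 0 higher without MetaICM replicate 2 or 3-day replicate 2 and 4 without either of the others.

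MetaICM was set beside the remaining groups in fits of their own, which share the MetaICM libraries. Against control, 1179 (7.41%) of 15904 genes were higher and 1430 (8.99%) lower in MetaICM, and against 6 days of ICM, 2518 (15.7%) and 1929 (12%) of 16036. The mitosis list had 0 higher and 19 lower of 46 against control (median −0.54) and 46 higher against 6 days (median 3.26). For the E2F list, 0 were higher and 8 lower against control (median −0.25), with 58 higher against 6 days (median 1.80). No histone gene was called against control in either direction with edgeR (median −0.06), and 51 of 54 were higher against 6 days (median 3.48). NRF2 targets numbered 3 higher and 4 lower of 30 against control (median 0.09) and 0 higher and 25 lower against 6 days (median −1.97). In the contractile list, 2 were higher and 4 lower against control, and 24 higher and 0 lower against 6 days. The plot of list medians by library shows where each library lay.

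**Figure D4:**
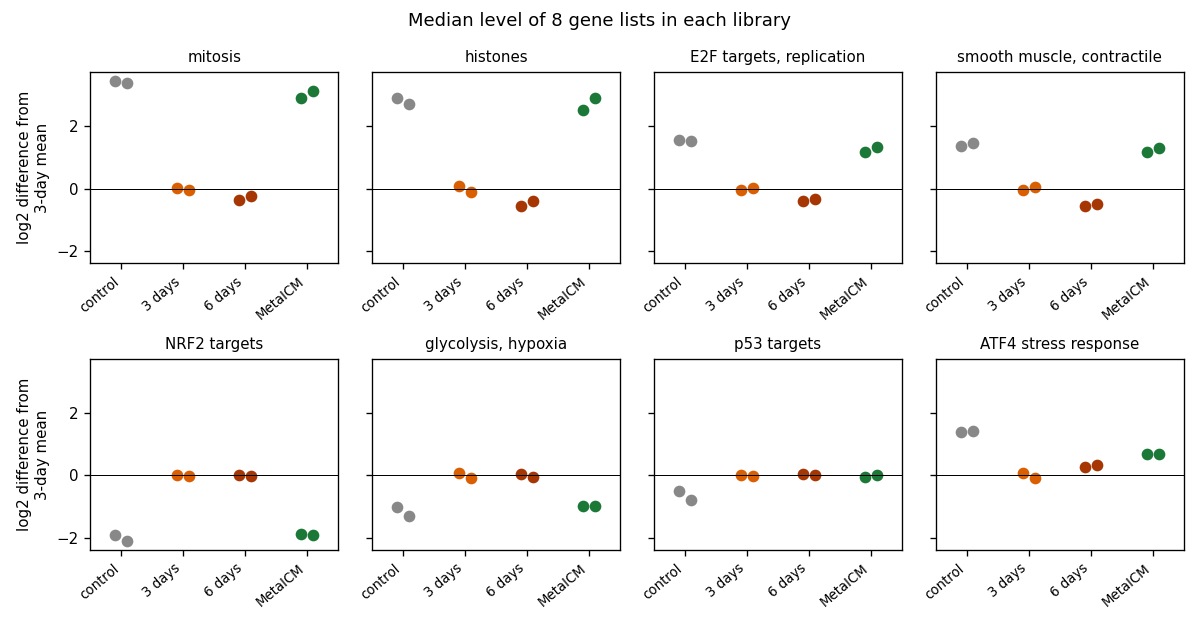
Median log2 level (CPM + 0.5) of 8 gene lists in each of the 8 libraries, as the difference from the mean of the 2 ICM 3 days libraries (line at 0). Each point is a library; MetaICM lies near control for histones, NRF2 targets and glycolysis, near both ICM groups for p53 targets, and between control and 3 days for the ATF4 list.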

How the data were processed

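Factory RNA-seq counts of 8 IMR90 libraries were analysed. Read pairs were mapped by the authors to hg19 (GRCh37) with STAR (2.6.0c, per the submitters' processing notes), and they deposited raw counts of read pairs on the exons of 28265 RefSeq genes, made with featureCounts (1.6.3), which per the file headers took primary pairs with both ends mapped, left out chimeric pairs and ignored strand, and did not count reads on several genes. Counts on exons hold nascent and spliced RNA alike. For factory RNA, the study's methods describe a differential analysis of intronic read counts with iRNAseq, whereas exon counts were used here. Neither that analysis nor the study's normalization with RUVs was run.

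From these counts, genes kept by filterByExpr (count minimum 10) were tested with edgeR (4.0.16, R 4.3.3) on the 4 libraries of the 2 groups, after TMM normalization, with the quasi-likelihood test and Benjamini-Hochberg adjustment over all genes tested. MetaICM was tested against control and ICM 6 days in the same way. CPM come from a joint TMM normalization of the 8 libraries, and list medians by library use log2(CPM + 0.5). Folds against 0 counts use a floor of 3 counts summed over the group, with the lower end of a 95% exact binomial interval. Those against 1 to 3 counts have the whole interval, and both cover counting error only.

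The 39 gene lists (1025 entries, 2 found by older symbols) and the comparison itself were chosen with earlier results of these data known. Named genes are, in each direction, the 12 with the largest log2FC among called genes with non-overlapping libraries and at least 50 counts in each library of the higher group, and the 6 with the highest CPM, then for each list the 2 called members with the largest log2FC and the 2 with the smallest adjusted p, and 30 genes of senescence chosen whatever their result. Not all are reported here, and other list members were named after their values were seen, among them the counts of 5 or fewer called members. Lists were described by counts and medians, without a test. Exon bases shared with other genes and GC content come from the files' coordinates and the GRCh37 sequence. Gene types come from RefSeq, as do promoters (GRCh38.p14, 250 bases upstream). The fits were also run on counts simulated with the dispersions of these libraries and few changed genes. That run does not test calls at the extent seen here, nor the spread between cultures.

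Alternatives were DESeq2 (1.42.0), DESeq2 size factors, upper-quartile factors, library totals, at least 10 counts in every library, no filter, all 8 libraries in one fit, a replicate block, libraries thinned to 14400220 counts, an adjusted p under 0.01, no minimum fold and each library left out. Figures were drawn with matplotlib 3.10.9, and tables were made with scipy 1.17.1, pandas 2.3.3 and numpy 2.4.6 under Python 3.11.15.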

Additional observations from a re-analysis of the deposited data

How the results depend on the processing

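Without a minimum fold, 3659 genes were higher and 3298 lower in MetaICM. Under the other alternatives that kept all 4 libraries, the count of higher genes stayed between 1754 (DESeq2) and 2282 (no filter), and that of lower genes between 1293 (adjusted p under 0.01) and 1982 (library totals). With each library left out in turn, between 1831 and 2330 genes were higher and between 1387 and 2005 lower, and as this leaves 1 library in a group, it is assumed to vary like the others. The replicate block gave 2125 higher and 1674 lower genes. The numbers were not taken as pairs, since only 2 pairs exist, no label ties them to a shared batch and the deviations of replicates 1 and 2 correlated by −0.13 across 16591 genes between the groups. With the numbers crossed, an alternative added after seeing the data, 2182 were higher and 1774 lower. The log2FC of CCND3, not called in any of these, ranged from −0.19 to 0.074 with single libraries left out and turned positive without 3-day replicate 1 or MetaICM replicate 1, and that of EGR1 ranged from −1.14 to 0.11. Of the values of 178 genes named in the text under the alternatives, 2422 kept their direction and side of the threshold, 25 lost the call, 9 gained one and 3 turned direction, all 3 without 1 library. Many of the genes named were picked for a large log2FC or small adjusted p in the main fit, so this tally does not measure calls in general. Settings in which a gene fell below the filter were left out of the tally. With 2 libraries per group, no test for outlying libraries was possible. Depth limits the genes with few counts, whose folds carry wide intervals, and the treatment behind the name MetaICM is not given in the sources used here.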
